A study of Mus musculus with 6 samples.

Results

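Oxidative phosphorylation genes were examined in inner enamel epithelium (IEE) of the mandibular first molar (MM1) of mouse embryos at E18.5, a stage at which the molar cusps are taking shape. The IEE is the epithelial sheet that folds into the cusps and later gives rise to the ameloblasts that make enamel. The members were the genes whose symbols begin with Ndufa, Ndufb, Ndufc, Ndufs, Ndufv, Uqcr, Atp5 or Cox4 to Cox8, together with Sdha, Sdhb, Sdhc, Sdhd and Cyc1, and without names marked as pseudogenes by -ps. This rule found 94 of the 18152 genes measured. By complex there were 40 genes of complex I, 4 of complex II, 9 of complex III, 16 of complex IV and 17 of complex V. The remaining 8 carry the prefix Ndufaf and are assembly factors of complex I rather than subunits, so they were kept as a group of their own. Subunits encoded by mitochondrial DNA were not analysed here.

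The study asked how epithelial Kdf1 (keratinocyte differentiation factor 1) acts in the shaping of molar cusps. Beside histology, proliferation assays, western blots and an inhibitor rescue, it used RNA-seq to screen for pathways downstream of Kdf1. Controls were Kdf1 fl/fl embryos, which the labels call WT or control, and mutants were K14-Cre;Kdf1 fl/fl embryos, labelled cKO or Kdf1 deletion. Both groups carry the floxed Kdf1 alleles on a C57BL/6J background, and the mutants alone carry Cre under the keratin 14 promoter, which is active in epithelium throughout the body. Each group had 3 libraries labelled as biological replicates, made from tissue collected by laser capture microdissection, and how many embryos went into a library was not given in the sources used here. Library totals ran from 14713918 to 16675133 counts. Kdf1 itself was measured at 52.5, 44.3 and 52.7 CPM (read counts scaled to library size) in the controls and at 0, 0.0629 and 0 CPM in the cKO libraries, which together held 1 count.

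Oxidative phosphorylation passes electrons from NADH and succinate through complexes I to IV of the inner mitochondrial membrane to oxygen, and the proton gradient built on the way drives ATP synthesis by complex V. Complex I oxidises NADH, complex II oxidises succinate and is also an enzyme of the tricarboxylic acid (TCA) cycle, complex III passes electrons to cytochrome c and complex IV reduces oxygen. Almost all subunits are encoded in the nucleus, in genes scattered over the chromosomes, and a few core subunits of complexes I, III, IV and V come from mitochondrial DNA. Nuclear respiratory factors, GABPA, YY1 and oestrogen-related receptors are known regulators of the nuclear genes.

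No oxidative phosphorylation gene passed the test between the genotypes, and most fitted differences were small and negative. Of the 94 genes, 90 had enough counts to be tested, and 0 of them passed an adjusted p of 0.05 in edgeR's quasi-likelihood test, against 0.545% of the 14131 genes tested. Under the criterion of the study, which also asks for a log2 fold change of 1 or more in either direction, the count was again 0, beside 0.432% of all genes. At an unadjusted p of at most 0.05, 10 genes were lower and 0 were higher in cKO, whereas 11.6% of all genes were lower and 13.0% were higher. These 10 genes are 11.1% of the members, a share near the background. The fitted differences nevertheless lay mostly on one side of 0. The log2 fold change of cKO over control was below 0 for 81 of the 90 genes, or 90% of them, against 50.5% of all genes tested. Without the cKO 1 library it was below 0 for 57 members, a count with no share of all genes beside it. With all 6 libraries its median was -0.17, with quartiles of -0.28 and -0.10, beside a median of -0.00 and quartiles of -0.24 and 0.31 over all genes. The genes of these complexes share libraries and are not independent of one another, so these counts describe the 6 libraries and carry no p-value.

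The intervals limit how large a difference could have gone unseen. For 87 of the 90 genes the 95% interval of the log2 fold change lay within -1 and 1, against 64.6% of all genes. The exceptions were Ndufaf3, Ndufc1 and Cox4i2. The fitted difference itself was smaller than 0.5 on the log2 scale for 89 genes, the exception being Ndufaf3. In CPM, 21 genes, or 23.3%, were lower in every cKO library than in every control, beside 16.2% of all genes, and 0 were higher in every cKO library, beside 14.5%. A fit with the replicate number as a block called 0 of the members, although it called 9.87% of all genes. In that fit 13 members were lower at an unadjusted p of at most 0.05, which is 14.4% of them, beside 13.9% of all genes. DESeq2 called 1 member, Uqcr11, beside 11.7% of the genes to which it gave an adjusted p. In bulk tissue, fewer cells of a type and less RNA per cell cannot be told apart.

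**Figure D1:**
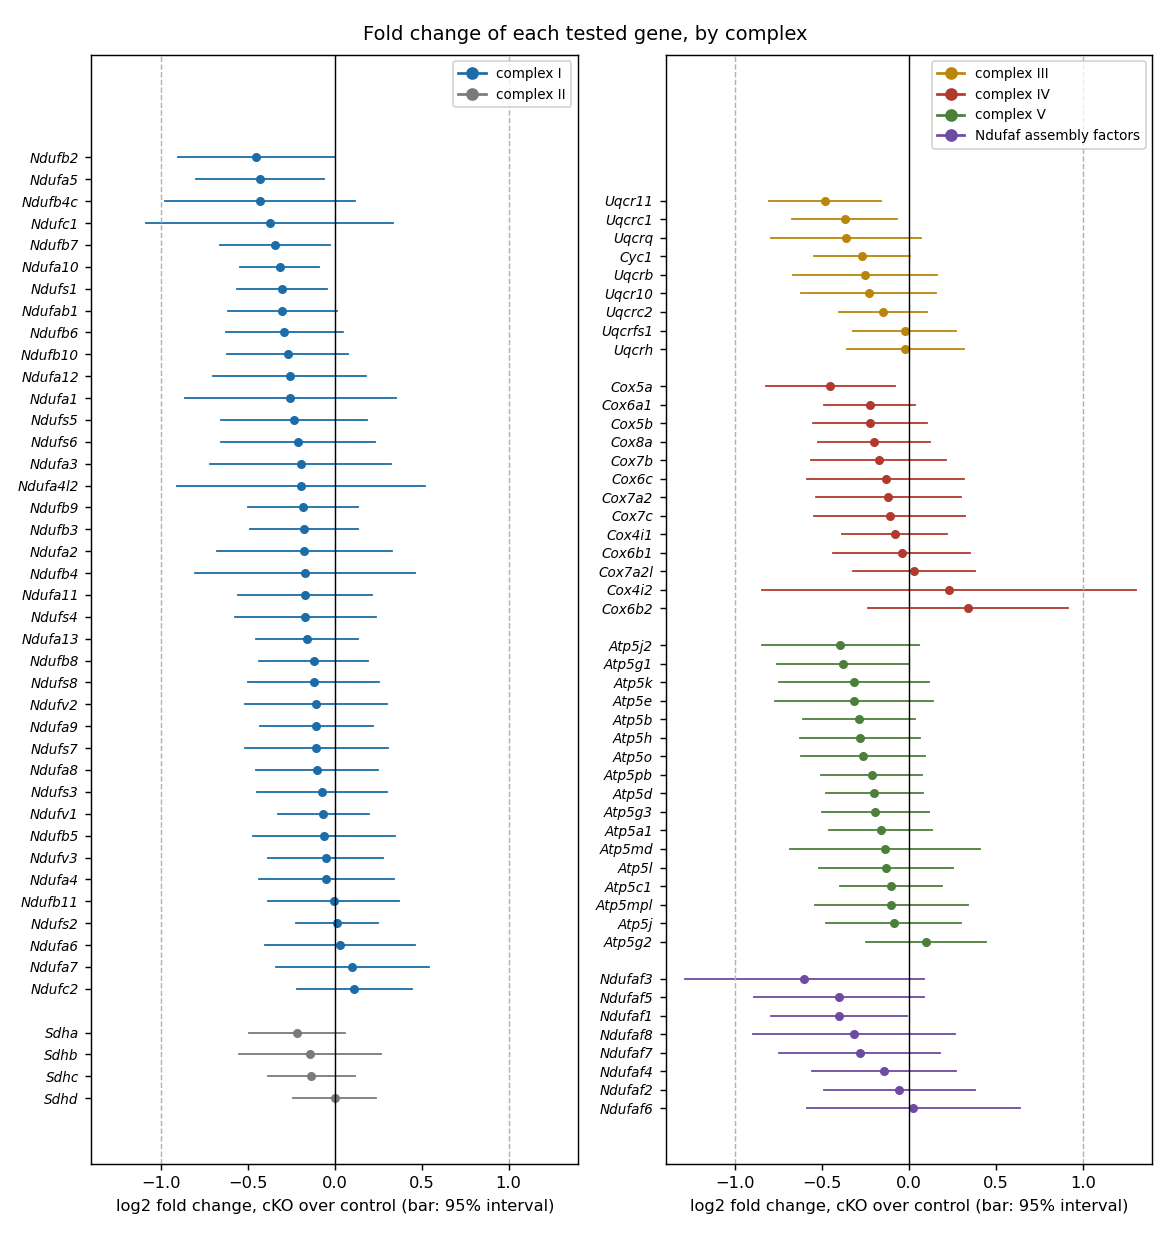
Log2 fold change of cKO over control (x axis) for each of the 90 tested genes, grouped and coloured by complex, with points for the edgeR estimate and bars for its 95% interval (n = 3 libraries per group). Points of 81 genes lie left of 0, and 87 intervals stay between the dashed lines at -1 and 1.

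In summed level the genotypes overlapped, and the cKO libraries were spread more widely than the controls in TPM (transcript levels corrected for length, with the same total in every library). The summed level of all members was 31121, 29830 and 31020 TPM in the controls and 25493, 29204 and 29857 TPM in the cKO libraries. The cKO 1 library stood below the other 5, whereas cKO 3 was just above control 2. In CPM the sums were 9518, 8618 and 9964 in the controls and 7307, 8561 and 8966 in the cKO libraries. The cKO mean was 91.9% of the control mean in TPM and 88.4% in CPM. In TPM, cKO 1 was the lowest of the 6 libraries for 62 of the 90 genes, cKO 2 for 9 and cKO 3 for 11. In TPM the median log2 ratio of a member to its control mean was -0.25 in cKO 1, -0.10 in cKO 2 and -0.09 in cKO 3, while the median over all tested genes was 0.11, 0.03 and -0.03 in the same libraries. In CPM the member median was -0.42, -0.16 and -0.02 in these cKO libraries and 0.02, -0.14 and 0.11 in the controls. On that scale 85 of 90 members lay below their control mean in control 2, beside 78 in cKO 2 and 48 in cKO 3. Compared in TPM by replicate number, 81 members were lower in cKO 1 than in control 1, 54 in cKO 2 than in control 2 and 60 in cKO 3 than in control 3, beside 41.6%, 52.5% and 43.1% of all genes. In every pair 39 members were lower, or 43.3%, beside 22.1% of all genes. Without cKO 1 the median log2 fold change of the members was -0.05, and that of all genes was 0.02.

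**Figure D2:**
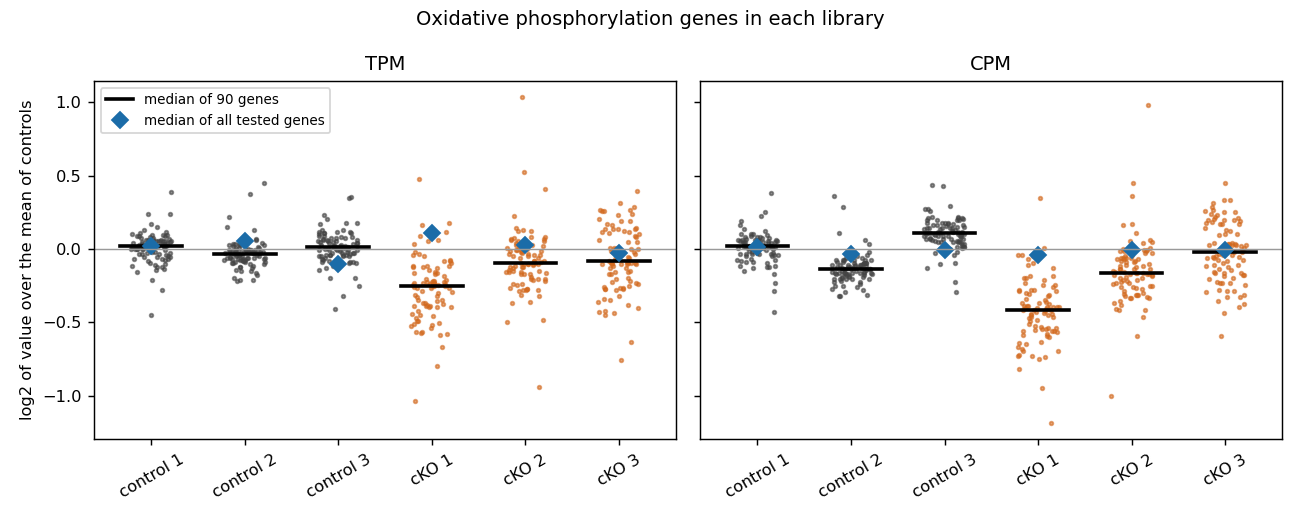
Log2 of each member's value over the mean of the 3 controls (y axis) in each of the 6 libraries (x axis), in TPM on the left and in CPM on the right. Each point is 1 of 90 genes, the black line is their median and the blue diamond is the median of all tested genes. The cKO 1 library is lowest on both scales, with member medians of -0.25 in TPM and -0.42 in CPM.

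Markers of other cell types differed among the same libraries. All 12 epithelial markers were present in every library, and their summed level was 13376 to 45330 TPM in controls and 4873 to 8581 TPM in cKO. By the fitted value 10 of the 12 were lower, 7 of them at an unadjusted p of at most 0.05. Over all genes 11.6% were lower and 13.0% were higher at that p. Amelx, the enamel matrix gene amelogenin, was at 4017, 15805 and 32209 TPM in controls and 9.45, 173 and 699 TPM in cKO. Krt14, the keratin whose promoter drives Cre, had a log2 fold change of -1.497 and an adjusted p of 0.0842 in edgeR, and Cdh1, the epithelial cadherin, one of -1.497 and an adjusted p of 0.0498. Epcam, a surface protein of epithelial cells, had one of -0.05, at 402, 252 and 264 TPM in controls and 304, 281 and 334 TPM in cKO. Endothelial markers were higher by the fitted value for 6 of 6 genes, 3 of them at that unadjusted p. Their sums were 126 to 171 TPM in controls and 161 to 498 TPM in cKO. Immune markers were higher for 9 of 9 tested genes, 7 of them at that unadjusted p. Their sums were 66.9 to 112 TPM in controls and 205 to 609 TPM in cKO. Ngp, S100a8 and S100a9 passed an adjusted p of 0.05 in edgeR, with log2 fold changes of 3.46, 3.20 and 3.39. Ly6g, a neutrophil marker that was not tested, was at 0 in the controls. For dental papilla and odontoblast markers 7 of 10 genes lay above 0, all 7 at that unadjusted p, and 1 was lower at that p. Twist1 passed the adjusted threshold in edgeR, with a log2 fold change of 2.23. The lower gene was Dspp, at 200, 842 and 1336 TPM in controls and 7.35, 32.3 and 181 TPM in cKO. Its log2 fold change was -3.45, with an adjusted p of 0.152 in edgeR. Col1a1 and Sparc also lay below 0, at -0.46 and -0.01. The sums of these markers were 2105 to 8204 TPM in controls and 4745 to 5976 TPM in cKO. Erythroid markers summed to 4370 to 6646 TPM in controls and 4461 to 7198 TPM in cKO. Of these, 4 of 7 lay above 0, and 0 were higher or lower at that unadjusted p. The highest endothelial, immune, papilla and erythroid sums among the cKO libraries were those of cKO 1, the library with the lowest member levels. Control 2, however, had a higher papilla sum than cKO 1, 8204 against 5976 TPM. The lowest epithelial sum, 4873 TPM, was that of cKO 2, whose members summed to 29204 TPM against 25493 TPM in cKO 1. Skeletal muscle markers, of which 3 of 12 could be tested and 1 was higher at that unadjusted p, summed to at most 21.6 TPM in any library. The part of these cell types in the differences of the oxidative phosphorylation genes was not tested.

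In level, the members were among the abundant transcripts of this tissue. The median member stood at 203 TPM over the 6 libraries, beside 19.4 TPM for all tested genes, and 85 of 90 exceeded that general median. As many as 71 were in the top 10% of all genes, which began at 110.2 TPM. Complex IV genes had the highest median, 602 TPM, followed by complex V with 579 TPM, complex III with 315 TPM, complex I with 174 TPM and complex II with 139 TPM. The Ndufaf assembly factors, which are not kept in the finished enzyme, had a median of 17.7 TPM. The span ran from Ndufaf3 at 11.6 TPM to Atp5b, the catalytic beta subunit of ATP synthase, at 1172 TPM. Within complex V the highest gene was 5.04 times the lowest, within complex II 2.22 times and within complex I 22.4 times.

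**Figure D3:**
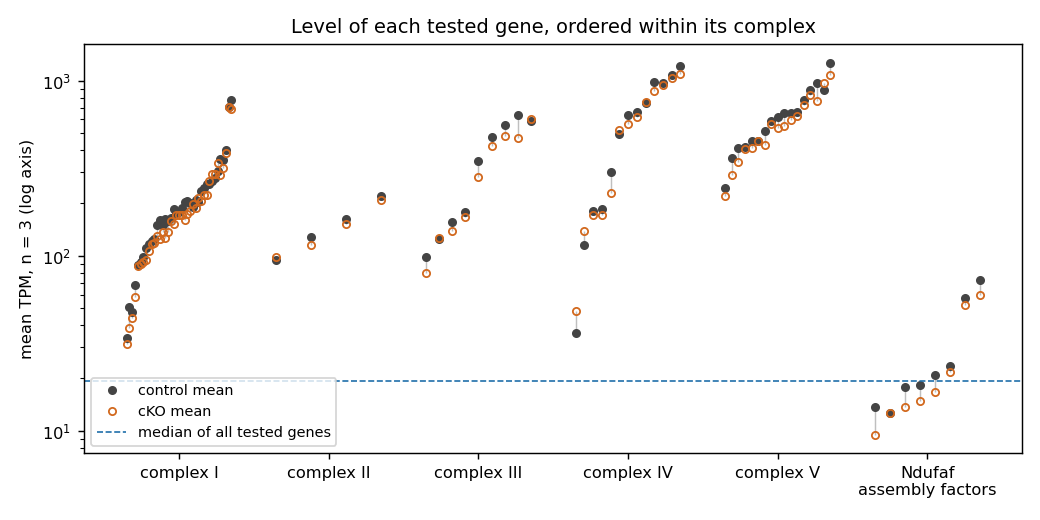
Mean TPM of each tested gene (y axis, log scale) in the control libraries (filled points) and the cKO libraries (open points), n = 3 each, ordered by level within each complex. Only assembly factors lie below the dashed line, the median of all tested genes at 19.4 TPM.

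Complex I genes showed a median log2 fold change of -0.17, with 35 of 39 tested genes below 0. At an unadjusted p of at most 0.05 in edgeR, 5 of the 39 were lower, beside 11.6% of all genes. Without cKO 1 that median was -0.022. Its summed level was 8431, 7989 and 8341 TPM in controls and 6826, 7895 and 8362 TPM in cKO, so that cKO 3 exceeded control 2 and control 3. The 7 core subunits, which hold the flavin and the iron-sulphur clusters, had a median of -0.11 and the 32 other tested subunits one of -0.18. Ndufa10, an accessory subunit of the membrane arm, had the smallest p of the complex. It was measured at 191, 183 and 177 TPM in controls and 164, 151 and 139 TPM in cKO. All 3 cKO values lay below the controls, with a log2 fold change of -0.32 (SE of 0.10, adjusted p = 0.119). Ndufs1, the largest core subunit and a carrier of iron-sulphur clusters, was measured at 68.2, 68.8 and 68.0 TPM in controls and 57.5, 56.5 and 60.5 TPM in cKO. The groups did not overlap, and the spread within each was small, with a log2 fold change of -0.30 (SE of 0.11, adjusted p = 0.154).

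Other accessory subunits of complex I showed differences of like size. Ndufa5, a subunit of the peripheral arm, stood at 173, 155 and 157 TPM in controls and 116, 141 and 120.2 TPM in cKO, with a log2 fold change of -0.43 (SE of 0.16, adjusted p = 0.154). Ndufb7, a subunit on the intermembrane side, stood at 389, 352 and 328 TPM in controls and 271, 321 and 279.7 TPM in cKO, with a log2 fold change of -0.35 (SE of 0.13, adjusted p = 0.174). Ndufb2, of the distal membrane arm, stood at 53.7, 46.8 and 52.1 TPM in controls and 34.4, 41.9 and 39.6 TPM in cKO and had the most negative fitted value of the complex, -0.45 (SE of 0.19, adjusted p = 0.201). None of these 3 overlapped between the groups, and none passed the adjusted threshold in edgeR, with the block or in DESeq2. At the other end Ndufc2, a subunit of the membrane arm, was measured at 323, 299 and 286 TPM in controls and 316, 329.9 and 369.6 TPM in cKO, with a log2 fold change of 0.11 (SE of 0.14, adjusted p = 0.66). Here cKO 1 lay within the range of the controls, with cKO 2 and cKO 3 above it. The most abundant gene was Ndufa3, a small accessory subunit, at 869, 726 and 726 TPM in controls and 542, 671 and 841 TPM in cKO, and the least abundant tested one was Ndufa11, a subunit of the membrane arm, at 33.9, 30.9 and 36.7 TPM in controls and 28.8, 31.2 and 33.9 TPM in cKO. Both overlapped between the groups. Ndufc1, a small membrane subunit, stood apart in 1 library, with 209, 196 and 204 TPM in controls and 99.0, 189 and 193 TPM in cKO, and its log2 fold change of -0.37 (SE of 0.30, adjusted p = 0.478) became -0.07 without cKO 1. Ndufb4b was left untested with 3 counts, all in control 1, and its copies Ndufb4 and Ndufb4c are similar enough that reads may have been split among them.

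Complex II, whose 4 subunits are all nuclear, had the summed level closest to that of the controls in TPM but not in CPM. In TPM it was 588, 621 and 598 TPM in controls and 575, 586 and 556 TPM in cKO, or 95.04% of the control mean. In CPM its level was 89.9% of the control mean, below the 91.9% of complex IV and the 90.9% of complex I. The cKO libraries were all below the controls, although cKO 2 and control 1 were within a few TPM of each other. Sdha, the flavoprotein that oxidises succinate, was measured at 131, 132 and 121 TPM in controls and 139, 106 and 101 TPM in cKO. Only cKO 2 and cKO 3 lay below the controls, and the log2 fold change was -0.22 (SE of 0.12, adjusted p = 0.29). Sdhb, the iron-sulphur subunit, stood at 144, 158 and 181 TPM in controls and 134, 160.1 and 161 TPM in cKO, with a log2 fold change of -0.14 (SE of 0.17, adjusted p = 0.645). Of the membrane anchors, Sdhc stood at 221, 227 and 209 TPM in controls and 202, 221 and 200.2 TPM in cKO and had a log2 fold change of -0.13 (SE of 0.11, adjusted p = 0.47). Sdhd, the other anchor, stood at 91.9, 105 and 86.2 TPM in controls and 100.1, 99.7 and 93.8 TPM in cKO, and its log2 fold change was -0.00 (SE of 0.10, adjusted p = 0.997). All 4 genes overlapped between the groups, and the intervals kept each within -0.55 and 0.26 on the log2 scale.

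Complex III had the most negative median of the 5 complexes, -0.26, with all 9 genes below 0. Without cKO 1 it was -0.11, and complex V, at -0.12, was then the more negative. Its summed level was 3204, 3042 and 3248 TPM in controls and 2623, 2761 and 2939 TPM in cKO, 87.7% of the control mean, with every cKO library below every control. In CPM cKO 3, at 941, lay above control 2, at 909.6. Uqcr11, a small subunit at the periphery of the complex, was measured at 677, 597 and 627 TPM in controls and 449.5, 489.7 and 471 TPM in cKO. The groups were well apart, and the log2 fold change was -0.48 (SE of 0.14, adjusted p = 0.104) in edgeR. With the replicate block the adjusted p of Uqcr11 was 0.0743, and in DESeq2 it was 0.0398, the only call of a member by any of these fits. Uqcrc1, a core protein facing the matrix, was measured at 371, 326 and 348 TPM in controls and 284, 271 and 289 TPM in cKO. Again the cKO values lay below the controls, with a log2 fold change of -0.37 (SE of 0.13, adjusted p = 0.144). Cyc1, the cytochrome c1 that hands electrons to cytochrome c, stood at 151, 154 and 159 TPM in controls and 135, 139 and 144 TPM in cKO, without overlap and with a log2 fold change of -0.27 (SE of 0.12, adjusted p = 0.21).

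Among the other genes of complex III, Uqcrq was lower in each cKO library in TPM, whereas Uqcrh and Uqcrfs1 overlapped. Uqcrq, a small subunit of the membrane part and the least abundant gene of the complex, stood at 89.9, 94.4 and 112 TPM in controls and 68.4, 88.4 and 82.8 TPM in cKO, with a log2 fold change of -0.36 (SE of 0.18, adjusted p = 0.267). By contrast Uqcrh, the hinge protein and the most abundant gene, was measured at 554, 584 and 634 TPM in controls and 581, 592 and 641 TPM in cKO. Its groups overlapped almost fully, and its log2 fold change was -0.02 (SE of 0.14, adjusted p = 0.945). Uqcrfs1, the Rieske iron-sulphur protein, was chosen after its values were seen as a further gene with overlapping groups, at 133, 124 and 116 TPM in controls and 127, 117 and 136 TPM in cKO.

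**Figure D4:**
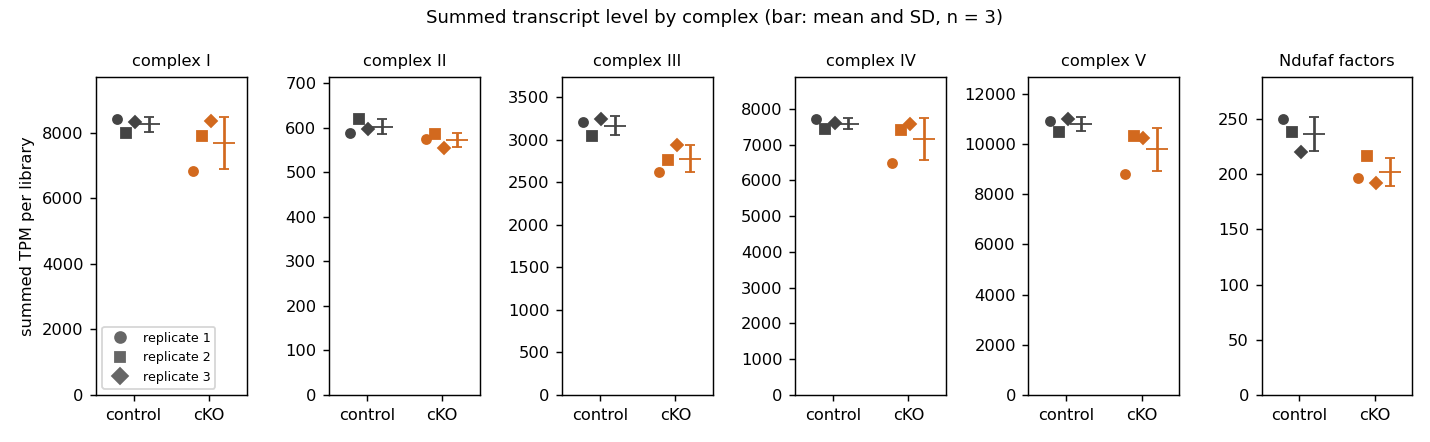
Summed TPM of the genes of each complex (y axis, from 0, with a scale of its own in each panel) in the control and cKO libraries. Symbols mark the replicate number, and the bar at the side gives mean and SD (n = 3). In complexes II, III and V, and for the Ndufaf factors, every cKO library lies below every control, and in complexes I, IV and V cKO 1 lies furthest below. In CPM the groups overlap in complex III and for the Ndufaf factors.

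Complex IV genes had a median log2 fold change of -0.12, with 10 of 13 tested genes below 0. At an unadjusted p of at most 0.05 in edgeR, 1 gene of the 13 was lower, beside 11.6% of all genes. The summed level was 7730, 7440 and 7599 TPM in controls and 6476, 7412 and 7574 TPM in cKO, so cKO 2 and cKO 3 were near the controls. Without cKO 1 the median of the complex was 0.01. The 1 gene was Cox5a, a subunit exposed to the matrix, which was measured at 305, 279 and 314 TPM in controls and 202, 259 and 221 TPM in cKO. Its groups did not overlap, with a log2 fold change of -0.45 (SE of 0.16, adjusted p = 0.145). Cox8a, a single-pass membrane subunit and the most abundant gene of the complex, stood at 1261, 1192 and 1189.9 TPM in controls and 997, 1148 and 1138 TPM in cKO, with a log2 fold change of -0.20 (SE of 0.14, adjusted p = 0.405). Cox6a1, which lies near the dimer interface, stood at 979.9, 965 and 994 TPM in controls and 878, 901 and 837 TPM in cKO, with a log2 fold change of -0.23 (SE of 0.11, adjusted p = 0.252). Cox7b, another small membrane subunit, stood at 175, 188 and 192 TPM in controls and 143, 192 and 174 TPM in cKO, with a log2 fold change of -0.17 (SE of 0.16, adjusted p = 0.547). In TPM, cKO 1 was the lowest library for Cox7b and Cox8a, but cKO 3 was for Cox6a1.

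Several complex IV subunits exist in alternative forms that are encoded by separate genes. Cox4i1, the usual form of subunit 4, stood at 980.3, 942 and 976 TPM in controls and 911, 967 and 967 TPM in cKO. Cox4i2, a form known from lung and from low oxygen, stood at 84.7, 158 and 104 TPM in controls and 66.7, 237 and 114 TPM in cKO. The share of Cox4i2 in the pair was 7.95%, 14.4% and 9.67% in controls and 6.82%, 19.7% and 10.6% in cKO, with full overlap (exact permutation test, two-sided, p = 0.8). Cox6b2, a form best known from testis and the least abundant tested gene of the complex, stood at 34.5, 46.9 and 27.2 TPM in controls and 50.3, 52.1 and 43.3 TPM in cKO and had the most positive log2 fold change, 0.34 (SE of 0.24, adjusted p = 0.429). Its share beside Cox6b1, which was measured at 733, 721 and 785 TPM in controls and 646, 783 and 820.0 TPM in cKO, was 4.65% ± 1.38 (SD, n = 3) in controls and 6.16% ± 1.11 in cKO (exact permutation p = 0.2). Cox7a2l, which is counted here with the Cox7a genes, stood at 524, 478 and 476 TPM in controls and 480.2, 501 and 579 TPM in cKO, and Cox7a2 stood at 194, 171 and 175 TPM in controls and 142, 179 and 191 TPM in cKO. The share of Cox7a2l among the Cox7a genes was 72.8%, 73.2% and 73.1% in controls and 77.2%, 73.4% and 75.05% in cKO. These shares did not overlap, and the difference was 2.18 percentage points (exact permutation p = 0.1, the smallest that 3 against 3 can give).

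Apart from Cox6b2, the forms found in muscle or testis were close to absent. Cox6a2 and Cox7a1, the heart and skeletal muscle forms, had 5 and 8 counts over all 6 libraries, and Cox8c, a testis form, had 1. These 3 genes were left untested, and at most 3 counts of any of them were seen in a library. Ndufa4l2, which is induced by low oxygen in many cells, was measured at 196, 134 and 120.1 TPM in controls and 114, 199.5 and 96.7 TPM in cKO, and Ndufa4, counted here with complex I by its name but now placed in complex IV, at 689, 709 and 727 TPM in controls and 603, 741 and 779 TPM in cKO. The share of Ndufa4l2 in that pair was 17.4% ± 4.21 (SD, n = 3) in controls and 16.0% ± 5.09 in cKO (exact permutation p = 0.7).

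Complex V genes had a median log2 fold change of -0.20, with 16 of 17 below 0, and a median of -0.12 without cKO 1. At an unadjusted p of at most 0.05 in edgeR, 1 of the 17 was lower, beside 11.6% of all genes. The summed level was 10917, 10499.6 and 11015 TPM in controls and 8796, 10333 and 10234 TPM in cKO, so that every cKO library was below every control, cKO 1 by the most. Atp5b, the most abundant of all members, stood at 1329, 1247 and 1222 TPM in controls and 1061, 1159 and 1015 TPM in cKO, without overlap and with a log2 fold change of -0.29 (SE of 0.14, adjusted p = 0.239). Atp5j2, the f subunit of the membrane part, stood at 916, 894 and 1098 TPM in controls and 651, 799.9 and 842 TPM in cKO, with the most negative log2 fold change of the complex, -0.40 (SE of 0.19, adjusted p = 0.25). Atp5pb, the b subunit of the stalk and the least abundant gene of the complex, stood at 248, 243 and 243 TPM in controls and 208, 225 and 228 TPM in cKO, with a log2 fold change of -0.21 (SE of 0.12, adjusted p = 0.325). In TPM the cKO libraries were below the controls for each of these 3 genes.

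The c subunit, which forms the rotating ring of ATP synthase, is encoded by 3 genes whose mature proteins are alike, and their fitted values differed in sign. Atp5g1 was measured at 336, 362 and 391 TPM in controls and 253, 315 and 302 TPM in cKO, with no overlap and a log2 fold change of -0.38 (SE of 0.16, adjusted p = 0.202). Atp5g2 was measured at 889.6, 884 and 862 TPM in controls and 853, 1028 and 1037 TPM in cKO, with overlap and a log2 fold change of 0.10 (SE of 0.15, adjusted p = 0.718). Atp5g3 was measured at 432, 449.6 and 476 TPM in controls and 389.6, 421 and 424 TPM in cKO, with a log2 fold change of -0.19 (SE of 0.13, adjusted p = 0.4). As a share of the 3 genes in TPM, Atp5g1 made up 20.3%, 21.3% and 22.6% in controls and 16.9%, 17.8% and 17.1% in cKO. Atp5g2 made up 53.7%, 52.2% and 49.9% in controls and 57.0%, 58.3% and 58.8% in cKO. Neither share overlapped between the genotypes, with differences of -4.10 and 6.14 percentage points. The exact two-sided permutation test, which did not pair the libraries, gave p = 0.1 for both. That is the smallest p of an unpaired test of 3 against 3, and it was 0.233 after Benjamini-Hochberg adjustment over the 7 shares examined. For Atp5g3 the difference was -2.04 percentage points (exact permutation p = 0.2). The 3 shares sum to a whole, so that a lower share of one requires a higher share elsewhere.

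**Figure D5:**
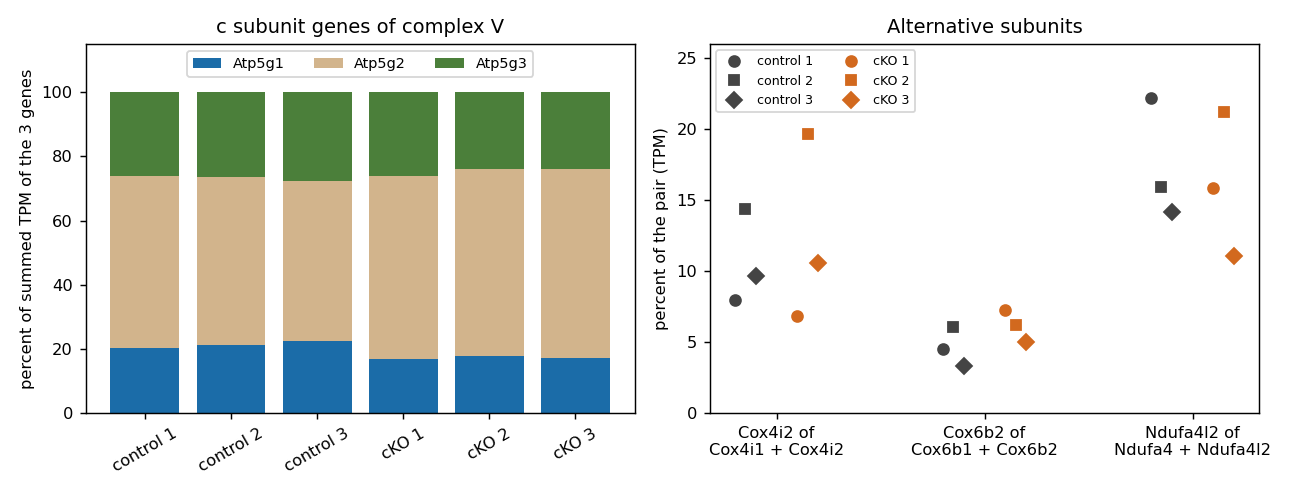
Left, percent of the summed TPM of the 3 c subunit genes contributed by each gene in each library. Right, percent of a pair contributed by Cox4i2, Cox6b2 and Ndufa4l2 (y axis) in controls (grey) and cKO (orange), 1 symbol per replicate number. The Atp5g1 share is 20.3% to 22.6% in controls and 16.9% to 17.8% in cKO, while the pairs on the right overlap.

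The Ndufaf assembly factors had a median log2 fold change of -0.30, with 7 of 8 below 0, and a median of -0.14 without cKO 1. At an unadjusted p of at most 0.05 in edgeR, 1 of the 8 was lower, beside 11.6% of all genes. The Ndufaf factors were the lowest group in level. Ndufaf1, a chaperone of the membrane arm, was measured at 20.8, 21.4 and 20.2 TPM in controls and 16.1, 16.7 and 17.2 TPM in cKO, without overlap and with a log2 fold change of -0.40 (SE of 0.17, adjusted p = 0.192). Ndufaf3 stood at 11.8, 11.8 and 17.4 TPM in controls and 11.4, 7.12 and 9.99 TPM in cKO and had the most negative value of all members, -0.60 (SE of 0.29, adjusted p = 0.248). Its interval ran from -1.29 to 0.08. Ndufaf8, the most abundant of them, stood at 85.3, 68.7 and 62.9 TPM in controls and 48.4, 69.3 and 62.0 TPM in cKO, with a log2 fold change of -0.32 (SE of 0.25, adjusted p = 0.461), and Ndufaf6 stood at 13.2, 11.8 and 13.1 TPM in controls and 9.93, 13.9 and 14.1 TPM in cKO, with a log2 fold change of 0.02 (SE of 0.26, adjusted p = 0.966).

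Genes that act beside the complexes were examined in further lists, and 0 genes of these lists passed an adjusted p of 0.05 in edgeR without the block. In the TCA cycle and pyruvate dehydrogenase list the median log2 fold change was -0.18 over 26 genes, with 7 lower and 0 higher at an unadjusted p of at most 0.05. Beside these counts and those of the next lists, 11.6% of all genes were lower and 13.0% higher at that p, the block called 9.87% of all genes in either direction and DESeq2 called 11.7%. Dlst and Ogdh, subunits of the 2-oxoglutarate dehydrogenase complex, were called with the replicate block in edgeR, with log2 fold changes of -0.54 and -0.58 and adjusted p of 0.039 and 0.0421. Without the block their adjusted p was 0.0648 and 0.0896. Further assembly factors, outside the Ndufaf group, had a median of -0.20 over 44 tested genes, with 4 lower and 0 higher. Taco1, which is needed to translate the mitochondrial Cox1 message, was called with the block (-0.87, adjusted p 0.0432), and DESeq2 called Taco1 and Acad9, an assembly factor of complex I.

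Carriers and electron entry proteins had a median of -0.24 over 27 tested genes, with 9 lower and 1 higher. Cycs, the cytochrome c that carries electrons from complex III to complex IV, stood at 52.8, 56.9 and 58.7 TPM in controls and 35.9, 43.8 and 39.2 TPM in cKO, with a log2 fold change of -0.56 and an adjusted p in edgeR of 0.0877, or 0.0417 with the block. Ucp2, a carrier of the uncoupling protein family, stood at 740.1, 724 and 1111 TPM in controls and 363, 288 and 490.2 TPM in cKO, with a log2 fold change of -1.24 and an adjusted p of 0.0808, or 0.00695 with the block. Ckmt1, a mitochondrial creatine kinase, stood at 125, 183 and 469 TPM in controls and 20.3, 37.8 and 73.8 TPM in cKO, and Ucp3, a relative of Ucp2, was at most 1.07 TPM in any library. The block called these 4 of 27 genes, all lower, and DESeq2 called 4 as well, beside 9.87% and 11.7% of all genes. The mitochondrial biogenesis regulators had a median of -0.09 over 21 genes, with 3 lower and 0 higher. Among them Ppargc1b, a coactivator of respiratory genes, was measured at 3.69, 4.18 and 3.36 TPM in controls and 2.38, 1.90 and 1.71 TPM in cKO. Its log2 fold change was -0.98, with an adjusted p of 0.0526 in edgeR and 0.0204 with the block.

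Promoter windows were compared because the nuclear genes of these complexes are known to share regulators. The windows reach from 250 bases before the annotated start to 50 bases after it, from RefSeq on GRCm38.p6, and 75 of the 94 genes had an entry, giving 80 windows. Searched on both strands, the NRF1 motif GCGCANGCG was in 28.8% of these windows, in 12.01% of the 14391 windows of all tested genes and in 6.25% of all 32851 windows. The ETS motif CCGGAAG, bound by GABPA, was in 23.8%, 15.8% and 8.86% of the same sets. The YY1 motif AAGATGGC was in 13.8%, 3.98% and 2.75%. The oestrogen-related receptor motif TCAAGGTCA was in 2.5%, 0.271% and 0.423%, where the 2.5% stands for only 2 of the 80 windows. The SP1 motif GGGCGG was in 43.8%, 60.9% and 35.7%. A match is a description of letters and not of binding, and none of these windows was assayed here.

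The upstream 250 bases of 5 genes are given 5′ to 3′ on the strand of the gene, in lower case with matches to the 5 motifs in capitals. Uqcr11 and Ndufa10 are shown as the members with the smallest p that had an entry, and the 3 c subunit genes because their shares were compared. Uqcr11 lies on the minus strand at chr10:80406822-80407071, Ndufa10 on the minus strand at chr1:92473759-92474008, Atp5g1 on the minus strand at chr11:96075632-96075881, Atp5g2 on the minus strand at chr15:102671048-102671297 and Atp5g3 on the minus strand at chr2:73911327-73911576, all on GRCm38.p6.
Uqcr11: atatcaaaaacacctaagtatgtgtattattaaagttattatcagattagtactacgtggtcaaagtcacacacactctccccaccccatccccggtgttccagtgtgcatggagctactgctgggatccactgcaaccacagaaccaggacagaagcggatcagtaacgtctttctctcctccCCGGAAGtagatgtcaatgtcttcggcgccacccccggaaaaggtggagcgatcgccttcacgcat
Ndufa10: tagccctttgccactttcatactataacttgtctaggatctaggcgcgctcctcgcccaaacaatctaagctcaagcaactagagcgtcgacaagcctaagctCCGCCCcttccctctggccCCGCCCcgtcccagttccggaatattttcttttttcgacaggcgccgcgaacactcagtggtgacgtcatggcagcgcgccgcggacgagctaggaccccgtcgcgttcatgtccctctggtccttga
Atp5g1: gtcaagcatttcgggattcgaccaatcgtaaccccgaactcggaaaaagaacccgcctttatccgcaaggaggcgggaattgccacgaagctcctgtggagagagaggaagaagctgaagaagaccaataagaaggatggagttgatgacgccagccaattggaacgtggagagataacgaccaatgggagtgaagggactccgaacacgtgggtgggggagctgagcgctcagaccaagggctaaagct
Atp5g2: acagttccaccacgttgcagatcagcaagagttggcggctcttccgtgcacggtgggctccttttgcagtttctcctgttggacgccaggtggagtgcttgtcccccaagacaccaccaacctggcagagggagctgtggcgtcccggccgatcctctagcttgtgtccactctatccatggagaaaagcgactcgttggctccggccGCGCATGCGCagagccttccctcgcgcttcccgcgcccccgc
Atp5g3: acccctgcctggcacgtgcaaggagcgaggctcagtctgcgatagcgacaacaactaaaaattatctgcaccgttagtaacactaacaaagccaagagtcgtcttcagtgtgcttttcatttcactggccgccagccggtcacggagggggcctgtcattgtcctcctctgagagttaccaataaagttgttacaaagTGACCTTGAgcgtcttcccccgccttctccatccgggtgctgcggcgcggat
The capitals mark an ETS match in Uqcr11, SP1 matches on the opposite strand in Ndufa10, an NRF1 match in Atp5g2 that reads on both strands at overlapping positions, and a match on the opposite strand to the oestrogen-related receptor motif in Atp5g3. Atp5g1 had no match to the 5 motifs in this window. The members with a known position were spread over 19 chromosomes, with at most 8 on any of them.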

How the data were processed

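RNA-seq of laser-captured IEE was analysed in 3 control and 3 cKO libraries, grouped by the sample titles. The deposited table gives 3 values per gene and library. The estimated counts are the authors' reads assigned per gene, unscaled, with 10.9% to 11.5% of values in a library not whole. TPM values, also deposited, are levels that the authors scaled by transcript length to an equal total. The deposited FPKM values, fragments per length and library size, were not used. The submitters' processing notes name BWA 0.7.12, Picard 2.6.0 and StringTie, without roles. The genome build and annotation were not given in the sources used here.

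Counts were rounded, and genes were filtered with filterByExpr, which kept 14131 genes. In R 4.3.3 with edgeR 4.0.16, robust quasi-likelihood F-tests (two-sided) compared cKO with control after TMM scaling (factors 0.950 to 1.03), with Benjamini-Hochberg adjustment over all genes tested. The criterion of the study asked for a log2 fold change of 1 or more in either direction at an adjusted p of 0.05 or less. The biological coefficient of variation was 25.4%. CPM values use TMM-scaled library sizes, and 3 counts, the limit that a count of 0 allows, equal at most 0.198 CPM in a library. That limit covers counting error only. Scripts were tested on simulated data. Isoform shares were compared by exact permutation tests in scipy 1.17.1. Alternatives were DESeq2 1.42.0, limma 3.58.1 on voom weights or log2 TPM, other scalings and filters, and leaving out each library.

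Titles number the replicates 1 to 3 in both groups without saying what a number marks. Deviations from the group means correlated between same-numbered libraries (r = 0.135, 0.324 and 0.499 across genes, which are not independent), although control 2 with cKO 1 gave 0.144. An alternative edgeR fit therefore took the number as a block, and some counts were made by number. The main fit, DESeq2 and the exact permutation tests did not pair the libraries. The p-values measure the spread between these samples only. The members, gene lists, motifs and named genes were chosen with earlier results of these data known. Named were the 10 members with the smallest p, the extremes of level and fold change in each complex, Sdha to Sdhd, Cyc1, isoform pairs and untested members.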

Additional observations from a re-analysis of the deposited data

How the results depend on the processing

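Across edgeR, DESeq2, limma, other scalings and filters, and leaving out each library in turn, 0 members were higher at an unadjusted p of at most 0.05 and 0 passed the criterion with a log2 fold change of 1. The count past the adjusted threshold was 0 in each of these except DESeq2, where it was 1 (Uqcr11). The replicate block gave 0 and changed no call of a member. The count lower at an unadjusted p of at most 0.05 was 10, and was 6 with upper quartile scaling and 5 with library size alone. Leaving out 1 library gave 1 to 23, with 1 without control 1, 2 without control 3, 3 without cKO 1, 6 without cKO 2 and 23 without cKO 3. No share of all genes stands beside these counts. Without cKO 3 the calls over all genes rose as well, with 623 past the adjusted threshold against 77. Members below 0 numbered 57 (without cKO 1) to 84 (without control 2) with a library left out, against 81. In CPM, 21 to 45 were lower in every remaining cKO library, against 21, with 45 without control 2 and 44 without cKO 3. Groups separate more easily with a library left out, and these counts have no share of all genes beside them. They are therefore not comparable with the 21. The count of separated members and the count below 0 were added after seeing the data. The median for complex II was -0.19 to -0.026 with a library left out, against -0.14, and its summed level in CPM in place of TPM was 89.9% of control. With a library left out the median for all members was -0.26 (without cKO 3) to -0.05 (without cKO 1), for complex I -0.26 to -0.022 and for complex III -0.33 to -0.11 (the same 2 libraries), for complex IV -0.24 to 0.01 (the same), for complex V -0.27 (without control 2) to -0.12 (without cKO 1) and for the Ndufaf factors -0.42 (without cKO 3) to -0.14 (without cKO 1). Complex I also moved to -0.10 without control 3, and complex IV to -0.07 without control 1 and -0.20 without control 2. In TPM, 31 members were lower in every cKO library, a count with no share of all genes in that unit to set beside it. Of 39 named and tested members, 28 kept 1 sign in all 17 alternatives. Scaling moved the median of all genes to at most 0.05. The cause of these shifts was not tested. Depth limits the low genes most, and the 4 untested members had 1 to 8 counts in all.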

Other observations

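The mitochondrial ribosomal proteins, which translate the subunits encoded by mitochondrial DNA, were examined in the same way. Of 78 genes with the prefix Mrpl or Mrps, all tested, 58 had a log2 fold change below 0, and the median was -0.15. At an unadjusted p of at most 0.05 in edgeR, 12 were lower and 0 were higher in cKO, beside 11.6% and 13.0% of all genes, 0 passed the adjusted threshold, and DESeq2 called 1, beside 11.7% of all genes. Their summed level was 6102, 6054 and 5950.2 TPM in controls and 5267, 5755 and 5828 TPM in cKO, so that in TPM every cKO library was below every control and cKO 1 was the lowest. In CPM the groups overlapped, with cKO 3 at 2655 and control 2 at 2471.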
